A study of Rattus norvegicus with 16 samples.

Results

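Gene expression in the hypothalamus of rats that inhaled (R)-(-)-linalool for 2 h without restraint was compared with that of control rats. The comparison rests on 8 of the 16 arrays of the study, 1 array per rat, chosen by their titles. The 4 linalool rats were exposed to the odour only, and the 4 control rats to neither odour nor restraint. The other 8 arrays, 4 of rats restrained for 2 h while inhaling linalool and 4 of rats restrained without it, served to estimate the spread between rats and, in 1 separate comparison, to measure the odour difference in other animals. All 16 were male Wistar rats aged 7 to 8 weeks, an outbred albino stock, and each group held different animals. The labels used here give no odour concentration, so the exposure is described by its duration alone.

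(R)-(-)-linalool is a floral-smelling terpene alcohol, in the mirror-image form that prevails in lavender oil. Inhaled odorants reach the brain by the olfactory nerve, whose signals pass through the olfactory bulb to the limbic system and the hypothalamus, and also by way of the lungs and the blood. The hypothalamus makes the releasing hormones of the pituitary and holds the neurons of feeding, arousal and the stress response, each known by the neuropeptide it makes. In bulk tissue, fewer cells of a type and less RNA per cell cannot be told apart.

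All values below are log2(signal + 16) after quantile normalization between the 16 arrays, which gives each array the same distribution of signals, and a difference is linalool minus control on that scale. Of 17 hypothalamic marker genes with a probe set, 12 passed the filter on dim signals, among them Avp, Oxt, Hcrt and Pmch, and of 11 markers of cerebral cortex and hippocampus 5 did, with Neurod6, Tbr1 and Slc17a7 below it. That filter acts on the mean over all 16 arrays, at a signal of 60.5, so the mean of a single group can lie below it. This was so for Icam1, Clec10a, Ptprc and Slfn4 in linalool rats, and for Htr3a, Pxmp4 and Crhbp in control rats. The deposited signals differed in level, with array medians of 70.3 to 94.2 in linalool rats and 67.0 to 116.0 in control rats. The BioC hybridization spike-in averaged 862.3 and 793.0 on the arrays of linalool rats 2 and 4 and 231.2 to 243.0 on those of linalool rats 1 and 3, against 208 to 244 on the control arrays. With 1 restrained linalool rat these form 3 BioC-high arrays, a split that no label names. Values with this split as a block, or on the other 13 (BioC-low) arrays alone, are given below for some, not all, of the results they move. In a fit with the split as a term, 0 probe sets were called for BioC high minus low, and 1171 had an unadjusted limma p under 0.05. The control group had the widest spread between rats, with a median SD over probe sets of 0.19, against 0.13 to 0.14 in the other groups. The root mean square deviation of an array from its group mean was 0.177 to 0.196 in linalool rats and 0.207 to 0.319 in control rats, without overlap between these groups. The two-sided permutation p was 0.0286, the smallest that 4 against 4 allows, and 0.143 after Benjamini-Hochberg adjustment over 5 array measures. The 4 deviations of a group share its mean, so they are not independent rats, and this p is nominal. In the 8 restrained rats it was 0.169 to 0.227. Control rats 1 and 2 lay farthest out, at 0.319 and 0.294. Control rat 1 also had the highest log2 ratio of the 3' to the 5' probe set of beta-actin, a measure of RNA integrity, at 2.30, against 1.06 to 1.41 in the other control rats and 1.52 to 1.74 in linalool rats.

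**Figure D1:**
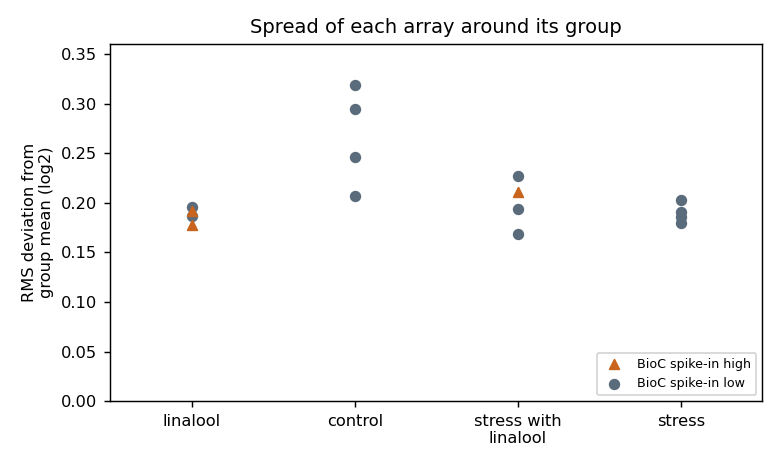
Root mean square deviation of each array from the mean of its group, over 18625 probe sets on the log2 scale; each point is 1 rat, and triangles mark the arrays with a high BioC spike-in. The 4 linalool arrays lie between 0.177 and 0.196, all below the control arrays at 0.207 to 0.319.

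Linalool inhalation alone gave no probe set past the test. With limma and Benjamini-Hochberg adjustment over 18625 probe sets, 0 were called (0% of those tested), and the smallest adjusted p was 0.282. At an unadjusted p under 0.05 there were 1831 probe sets (9.83%), 993 with a higher mean in linalool rats and 838 with a lower one. Values of the 4 linalool rats lay all above or all below those of the 4 control rats in 883 probe sets (4.74%), in 471 above and in 412 below.

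Few differences were large. Their standard deviation over probe sets was 0.18, against a median SD between rats of 0.14 in the linalool group and 0.19 in the control group. Over probe sets, the median absolute difference was 0.10 and 95% of the absolute differences were under 0.35. A 1.5-fold difference in either direction was reached by 129 probe sets (0.693%), 62 higher and 67 lower, and a 2-fold difference by 18. The median standard error (SE) of a difference was 0.12, so that a typical 95% confidence interval reached 0.25 to either side. For 16120 probe sets (86.6%) that interval lay wholly inside a 1.5-fold difference in either direction, and for 18356 (98.6%) inside a 2-fold one. Dim probe sets spread more, with a standard deviation of differences of 0.20 in the dimmest of 3 equal bands of signal and 0.15 in the brightest. The values as deposited were lower in linalool rats by a median of 0.17 over all probe sets, a shift that quantile normalization removes.

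Among the 4 groups, this contrast had the smallest standard deviation of differences of the 4 comparisons between single groups. It was 0.18 here, against 0.20 for stress with linalool minus stress. For stress minus control it was 0.21, and 0.22 when stress with linalool was set against linalool alone. The counts past 1.5-fold were 129 here and 315, 284 and 377 in those comparisons, in the same order. The comparison of stress with control shares its control arrays with this one, and the last one its linalool arrays.

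**Figure D2:**
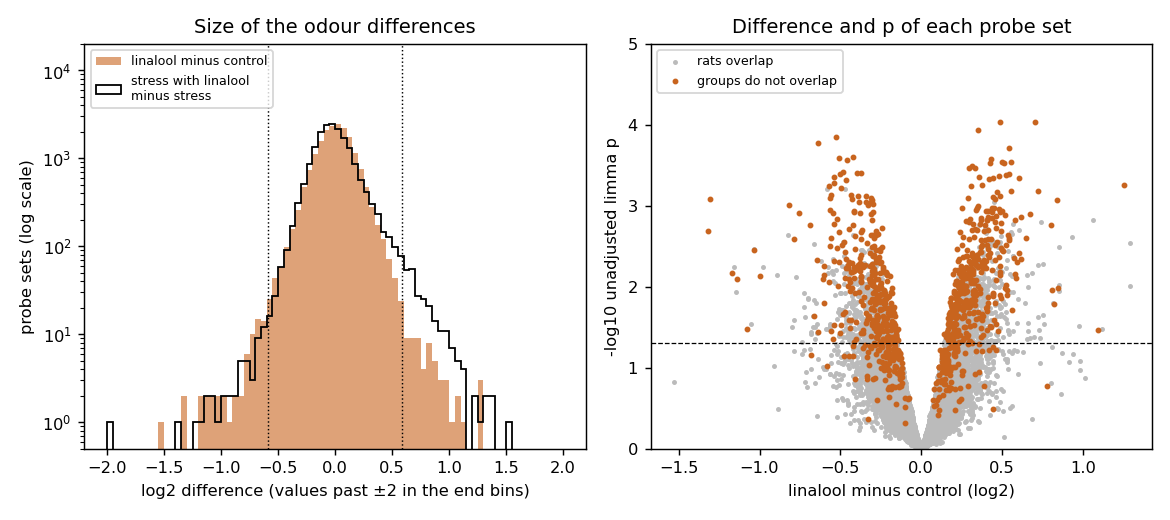
Left, histogram of the log2 differences of 18625 probe sets, outlined for stress with linalool minus stress and filled for linalool minus control, with a logarithmic count axis and dotted lines at a 1.5-fold difference. Right, the linalool minus control difference against the negative log10 of the unadjusted limma p, with the 883 probe sets whose groups do not overlap in colour and a dashed line at the unadjusted threshold; 0 probe sets passed after adjustment.

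The higher genes with the smallest p included a hypothalamic neuropeptide. Sst encodes somatostatin, the inhibitor of growth hormone release. It had 10.65, 10.92, 10.89 and 10.77 in linalool rats 1 to 4, against 10.25, 10.46, 10.00 and 10.51 in control rats 1 to 4. Every linalool rat lay above every control rat. The difference was 0.50 (SE 0.11, 95% interval 0.27 to 0.73), a 1.42-fold level on this scale, with a limma adjusted p of 0.282. Cd99, which encodes a membrane glycoprotein of leukocyte migration, had 9.04, 8.95, 8.91 and 9.08 in linalool rats and 8.43, 8.20, 8.78 and 8.39 in control rats. Its groups did not overlap either, at a difference of 0.54 (SE 0.11), but the other kept probe set of Cd99 differed by -0.013. Katnip, a gene of primary cilia, had the smallest p of all named genes tested. Its values were 6.74, 6.74, 6.72 and 6.58 in linalool rats, against 6.34, 6.32, 6.43 and 6.28 in control rats, a difference of 0.35 (SE 0.070).

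The other 9 of these 12 higher genes have varied roles. Prpf19, a core splicing factor, differed by 0.29 (SE 0.065), Dcps, the scavenger decapping enzyme, by 0.42 (SE 0.095), and Eri3, an exoribonuclease gene, by 0.32 (SE 0.069). Dnlz, which encodes a helper of the mitochondrial heat shock protein 70, differed by 0.33, and Qrsl1, a subunit of the mitochondrial enzyme that forms glutaminyl-tRNA, by 0.49. Ly6h, a brain-enriched modulator of nicotinic receptors, differed by 0.48 (SE 0.11) and Arhgdig by 0.54 (SE 0.12). Ccnq, a cyclin gene, and Wdr83os differed by 0.36 and 0.31. In all 12 the lowest linalool rat exceeded the highest control rat, and the limma adjusted p of each was 0.282. Picking genes by smallest p favours such separation, which 2.78% of all genes had in that direction.

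The largest higher differences without overlap were those of Nit2 and Hspa1a. Nit2, the omega-amidase gene, had 8.19, 8.74, 8.78 and 8.55 in linalool rats and 7.89, 8.03, 7.88 and 7.24 in control rats, a difference of 0.81 (SE 0.28, adjusted p = 0.370 with limma). Linalool rat 1 was the lowest of its group and control rat 4 the lowest of all. Abcg2, an efflux transporter of the blood-brain barrier, differed by 0.61 (SE 0.18), Tmod1, which caps actin filaments, by 0.59 (SE 0.18), Ppp4c, the catalytic subunit of protein phosphatase 4, by 0.59 (SE 0.19) and the kinase gene Taok3 by 0.58 (SE 0.19). The other kept probe set of Tmod1 differed by 0.19. Without regard to overlap, the highest named difference was that of Pxmp4, a gene of peroxisomal membranes that was singled out after its values were seen. It had 7.44, 7.45, 7.56 and 7.38 in linalool rats and 6.04, 5.85, 7.49 and 5.29 in control rats, so that control rat 3 lay within the linalool range and the other 3 control rats far below it.

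The 12 lower genes with the smallest p had differences between -0.31 and -0.64. Stard5, which binds sterols, had 6.68, 6.51, 6.93 and 6.58 in linalool rats and 7.32, 7.40, 7.13 and 6.97 in control rats, with no overlap, a difference of -0.53 (SE 0.11, adjusted p = 0.282 with limma). Pros1 encodes protein S, an anticoagulant and a ligand of phagocytic receptors. Its values were 6.78, 7.27, 7.44 and 6.97 in linalool rats, against 7.68, 7.89, 7.82 and 7.63 in control rats, a difference of -0.64 (SE 0.13). Heg1, a gene of endothelial junctions, differed by -0.48 (SE 0.11), Stard8 by -0.51 (SE 0.11), Myh9, the heavy chain of nonmuscle myosin IIA, by -0.40 (SE 0.089) and Fyn, a Src family kinase, by -0.42 (SE 0.090). The other kept probe sets of Fyn and Heg1 differed by -0.091 and -0.15. Rad18, a ubiquitin ligase of DNA damage tolerance, differed by -0.54 and the translation initiation factor gene Eif3c by -0.58, or -0.29 at its other kept probe set. The macrophage lectin gene Clec10a differed by -0.47, and Hdhd3, Tmem198b and Ociad1 by -0.56, -0.50 and -0.31. In 10 of these 12 the groups did not overlap, the exceptions being Eif3c and Clec10a. They too were picked by smallest p, and 2.61% of all genes were lower without overlap.

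The largest lower differences without overlap exceeded those of the higher genes. Slc13a3, a sodium-coupled transporter of dicarboxylates, had 7.74, 8.01, 8.34 and 7.35 in linalool rats and 8.99, 9.69, 8.76 and 9.24 in control rats. The difference of -1.31 (SE 0.32, 95% interval -1.98 to -0.63) is 0.40 times the control level and had an adjusted p of 0.282 with limma. Coch, which encodes the secreted matrix protein cochlin, had 7.65, 7.83, 7.94 and 8.27 in linalool rats, against 8.88, 8.74, 9.66 and 8.70 in control rats, a difference of -1.07 (SE 0.46, adjusted p = 0.461 with limma). Npas2, a clock transcription factor gene related to Clock, differed by -1.03 (SE 0.30), with 8.72, 8.00, 7.68 and 8.21 in linalool rats and 8.74, 9.51, 9.33 and 9.16 in control rats. Linalool rat 1 and control rat 1 were nearly level. Cd74, the invariant chain of class II antigen presentation, differed by -0.997 (SE 0.32), the transcription factor gene Maf by -0.79 (SE 0.22) and the complement gene C3 by -0.82 (SE 0.20). The most negative difference of any gene was that of Mx2, an interferon-induced gene singled out after its values were seen. It had 7.82, 4.89, 5.05 and 7.81 in linalool rats and 7.56, 7.67, 8.94 and 7.54 in control rats, so that linalool rats 2 and 3 were low, linalool rats 1 and 4 lay among the control rats, and control rat 3 was high. The other kept probe set of Mx2 differed by -0.29, and this one by -0.81 with the BioC split as a block.

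**Figure D3:**
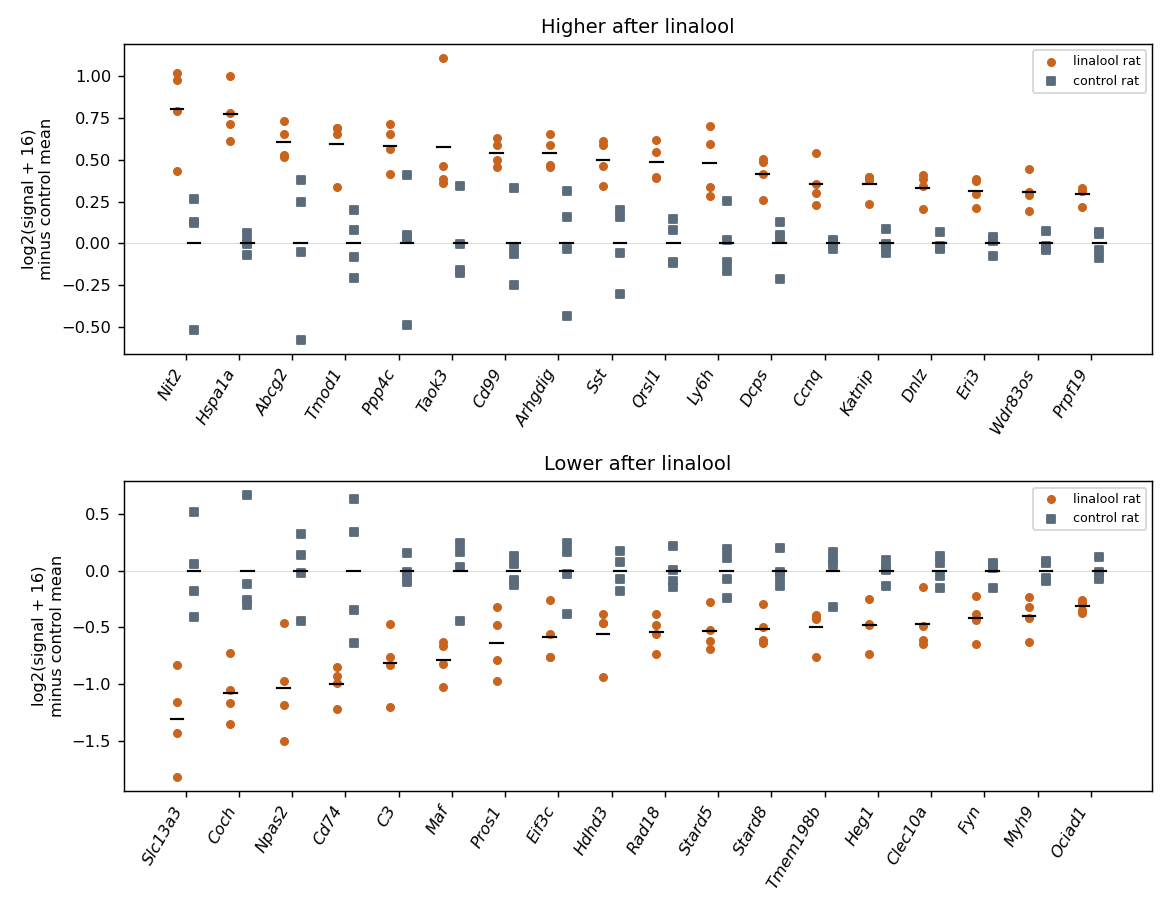
Values of each rat for the genes with the smallest p and the largest differences without overlap, as log2(signal + 16) minus the mean of the control rats; circles are linalool rats, squares control rats and bars group means. Nit2 and Hspa1a lead the higher genes at 0.81 and 0.78, and Slc13a3 and Coch the lower ones at -1.31 and -1.07.

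Genes of neuropeptides were more often higher than lower in linalool rats. Of 28 measured, 23 had a positive and 5 a negative difference, with a median of 0.18 against 0.0031 over all 10250 measured genes, of which 5211 were positive. With 0 members past the test, 5 were higher at an unadjusted p under 0.05, a threshold that 5.20% of all genes passed in that direction, and 0 lower (4.84% of all genes). The 5 were Sst, Npvf, the gene of gonadotropin-inhibitory peptides (0.60, SE 0.22), Trh, the releasing hormone of thyrotropin (0.43, SE 0.17), Npy, the feeding peptide of the arcuate nucleus (0.38, SE 0.16), and Tac3, neurokinin B (0.28, SE 0.11). Trh had 8.82, 9.28, 9.31 and 9.00 in linalool rats and 8.42, 8.99, 8.83 and 8.46 in control rats, and Npy had 9.74, 10.19, 10.13 and 10.05 and 9.59, 9.82, 9.15 and 10.04, in the same order. Both ranges overlapped, and without control replicate 3 Npy differed by 0.21. Oxytocin, Oxt, differed by 0.21 (95% interval -0.081 to 0.50) and vasopressin, Avp, by -0.12 (-0.60 to 0.37). On the list of hypothalamic markers, which shares genes with the neuropeptides, 10 of 12 were positive, and the summed signal of those markers, added on the linear scale after normalization, was 21462 to 30609 in linalool rats and 20492 to 26128 in control rats. The median of the neuropeptide list was 0.029 with the values as deposited, which is 0.20 after taking off the shift that all probe sets share. On the BioC-low arrays it was 0.11, and the median of the hypothalamic markers went from 0.21 to 0.12.

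Heat shock genes, which encode the chaperones made when proteins misfold, were higher in linalool rats in 16 of 24 cases. The median difference was 0.10, and in 6 of the 24 every linalool rat exceeded every control rat, where 2.78% of all genes did so. These 6 were Hspa1a, Hspb1, Chordc1, Stip1, Bag3 and Dnajb1. Hspa1a encodes inducible heat shock protein 70, and its near-identical neighbour Hspa1b can share its probes. It had 7.94, 8.04, 8.11 and 8.33 in linalool rats, against 7.26, 7.32, 7.34 and 7.39 in control rats. The group means were 8.10 ± 0.16 and 7.33 ± 0.053 in the same order (SD, n = 4 each), a 1.71-fold difference. Its SE in the fit over all arrays was 0.54, and that fit pools the spread of the restrained rats, which had an SD of 0.82 in stress with linalool and 1.53 in stress. The limma adjusted p was 0.653 there. In a fit of the 8 linalool and control arrays alone the SE was 0.10 and the limma adjusted p 0.108, still short of the threshold.

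The small heat shock protein gene Hspb1 had 8.19, 8.12, 8.06 and 7.90 in linalool rats and 7.37, 7.77, 7.72 and 7.66 in control rats, a difference of 0.44 with an SE of 0.43 over all arrays and 0.11 over the 8. Stip1 and Chordc1, cochaperones of Hsp90, differed by 0.30 (SE 0.11) and 0.37 (SE 0.16), and were the 2 members at an unadjusted p under 0.05. Bag3, a cochaperone of Hsp70, differed by 0.29 and Dnajb1, a partner of Hsp70, by 0.21. The summed signal of the list was 36885 to 37714 in linalool rats and 33932 to 35527 in control rats, without overlap. Bright genes weigh most in such a linear sum. In linalool rats Hspa1a and Hspb1 had means of 8.10 and 8.07, against 11.08 for Stip1. The part of the genes named above in that sum is not given. The constitutive mitochondrial chaperones Hspd1 and Hspa9 differed by -0.0033 and -0.098. With the values as deposited the list's median was -0.051, or 0.12 after taking off the shift that all probe sets share.

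On the stress axis, glucocorticoid and immediate early gene lists, as over all probe sets (0%), 0 members were called. Crh, the releasing hormone of the axis, had 7.41, 7.74, 7.35 and 7.34 in linalool rats and 7.61, 7.09, 7.57 and 7.71 in control rats, a difference of -0.034 (95% interval -0.40 to 0.33). On the stress axis list, 1 of 6 measured genes was positive, Crhbp at 0.27. The glucocorticoid-responsive list had a median of 0.052, with 2 of 23 higher at an unadjusted p under 0.05, the metallothionein gene Mt2A (0.48, SE 0.21) and Gpd1 (0.44, SE 0.17), against 5.20% of all genes. With the BioC split as a block Mt2A differed by 0.13, and by 0.29 on the BioC-low arrays. Sgk1, a kinase induced by glucocorticoids, differed by -0.15 (95% interval -0.40 to 0.11), Fkbp5 by 0.16 (-0.13 to 0.45) and Per1 by 0.084 (-0.26 to 0.43). Among immediate early genes, which neurons switch on within minutes of activity, 9 of 23 were positive and the median was -0.058. Fos had 8.82, 8.64, 8.53 and 8.35 in linalool rats and 8.99, 8.53, 8.53 and 8.19 in control rats, a difference of 0.026 (95% interval -0.58 to 0.64). Nr4a1 differed by -0.19 (SE 0.29), and Rgs2, the 1 member at an unadjusted p under 0.05, by 0.30 (SE 0.10).

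Transmitter genes were higher and lower in about equal part for GABA and mostly lower for glutamate. On the GABA list 9 of 17 were positive. Abat, which degrades GABA, at 0.40 (SE 0.14) and the receptor gene Gabbr1 at -0.18 (SE 0.084) were the members at an unadjusted p under 0.05. Of all genes, 5.20% were higher and 4.84% lower at that threshold, and 2.78% were higher without overlap. Gabra2, a subunit of the GABA-A receptor, had 9.38, 9.21, 9.24 and 9.23 in linalool rats and 8.82, 8.31, 9.10 and 9.15 in control rats, without overlap (0.42, SE 0.21, adjusted p = 0.529 with limma). Of 24 glutamate genes 18 were negative (median -0.089), with the receptor gene Gria3 at -0.42 and the glial transporter genes Slc1a2 and Slc1a3 at -0.33 and -0.15 lower, and Grin1, the obligate NMDA receptor subunit, at 0.28 higher, at an unadjusted p under 0.05. The other kept probe sets of Abat, Gria3, Grin1 and Slc1a2 differed by -0.035, 0.043, 0.066 and -0.12, and those of Slc1a3 by -0.0027 and 0.17. Without linalool replicate 1 Grin1 differed by 0.15, and without control replicate 2 Gabra2 by 0.24. On the BioC-low arrays the differences were -0.70 for Gria3, -0.17 for Slc1a2 and 0.45 for Grin1.

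Genes of dopamine neurons were higher on average in linalool rats, with wide spread for Th, Slc6a3 and Slc18a2 among control rats (SD 0.48, 1.19 and 0.59, n = 4). Th, the rate-limiting enzyme of dopamine synthesis, had 9.94, 9.35, 9.57 and 9.61 in linalool rats and 9.52, 9.38, 8.82 and 8.50 in control rats, a difference of 0.57 (SE 0.24, adjusted p = 0.468 with limma). Slc6a3, the dopamine transporter, had 9.44, 8.31, 9.10 and 8.91 in linalool rats and 8.93, 8.72, 8.03 and 6.31 in control rats, a difference of 0.94 (SE 0.48), and control rat 4 was far below the rest. Without control replicate 4 the difference of Slc6a3 was 0.38. Th and Slc6a3 ordered the control rats the same way. Ddc and the vesicular transporter gene Slc18a2 differed by 0.27 and 0.11, and Ddc by 0.16 without linalool replicate 1. On the monoamine and histamine list 15 of 19 were positive, with Htr3a, a serotonin-gated channel, at 0.45 (SE 0.15), or 0.30 without control replicate 1.

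Among receptors and channels on which linalool has been reported to act, 3 had a positive and 7 a negative difference. Of 17 with a probe set, 10 passed the filter, and their differences had a median of -0.057. Grin1 was the 1 member at an unadjusted p under 0.05, while Grin2a differed by -0.013 (95% interval -0.35 to 0.33) and Adora1, the adenosine A1 receptor, by -0.041 (-0.31 to 0.23). The cold receptor gene Trpm8 was below the filter. Of 23 genes of xenobiotic metabolism, which in liver oxidize and conjugate compounds such as terpenes, 11 were positive. Abcg2 was higher and Gstt1, a glutathione transferase, lower (-0.43, SE 0.14) at an unadjusted p under 0.05. At that threshold 5.20% of all genes were higher and 4.84% lower. Oxidative phosphorylation genes were positive in 27 of 33 cases but small, at a median of 0.074, led by the complex I subunits Ndufa5 (0.31, SE 0.10) and Ndufs3 (0.22, SE 0.088).

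Of 20 measured clock genes 3 were lower at an unadjusted p under 0.05, against 4.84% of all genes. Besides Npas2 they were Nr1d2, a repressor of the clock loop (-0.26, SE 0.073), and the clock output gene Dbp (-0.32, SE 0.11). Nr1d2 had 9.87, 9.77, 9.71 and 9.95 in linalool rats and 10.10, 10.02, 10.13 and 10.10 in control rats, without overlap, and Dbp had 9.08, 8.97, 9.05 and 8.94 and 9.06, 9.53, 9.34 and 9.38, in the same order, with control rat 1 inside the linalool range. Bmal1, the partner of Npas2, differed by 0.20, and the median of the list was -0.00072. On the antioxidant and hypoxia list Ddit3, of the endoplasmic reticulum stress response (0.37, SE 0.13), and Srxn1, which repairs peroxiredoxins (0.29, SE 0.13), were higher without overlap, and Egln3 (-0.34) and Hif1a (-0.15), both of oxygen sensing, were lower with overlap. The other kept probe set of Srxn1 differed by 0.035. Over all genes, 2.78% were higher and 2.61% lower without overlap.

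Genes of inflammation and antigen presentation were mostly lower in linalool rats. Of 20 measured, 16 had a negative difference, at a median of -0.16 (-0.17 with the values as deposited, relative to their shift). In 4 of them, against 2.61% of all genes, every linalool rat lay below every control rat. These were C3, the central complement protein, Vcam1 and Icam1, adhesion molecules of vessels, and B2m, the light chain of class I antigen presentation. C3 had 7.16, 7.09, 7.45 and 6.72 in linalool rats and 8.08, 7.82, 7.91 and 7.87 in control rats. Icam1 had 6.07, 5.83, 6.36 and 6.11 in linalool rats and 6.78, 6.40, 6.50 and 6.61 in control rats, a difference of -0.48 (SE 0.25). Its linalool mean, 6.09, lay below the limit of the filter on dim signals, which it passed on the mean of all 16 arrays. Vcam1 differed by -0.29 (SE 0.085) and B2m by -0.29 (SE 0.093). The summed signal of the list was 9674 to 10184 in linalool rats and 11232 to 12210 in control rats, without overlap. Bright genes weigh most in a linear sum. B2m, at means of 12.34 in linalool rats and 12.63 in control rats, made the largest part of it, so the sum largely repeats that gene. Microglia, the resident phagocytes that make much of the complement in brain, had 9 of 15 measured markers negative, at a median of -0.060. Ptprc, the pan-leukocyte gene, was at -0.49 (SE 0.15) and Aif1 at -0.40 (SE 0.16), whereas P2ry12 and C1qa differed by 0.056 and -0.060.

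Markers of meninges and fibroblasts had the most negative median of the 30 lists. Of 13 measured, 12 were negative, at a median of -0.40, and in 0 did the groups separate. In the fit over all 16 arrays 0 passed an unadjusted limma p of 0.05. In the fit of the 8 linalool and control arrays, Col1a2, Col3a1, Igfbp2 and Ogn had unadjusted limma p of 0.00291 to 0.0255. Their adjusted limma p were 0.568 to 0.646. These 4 had the largest differences of the 13, so they do not stand for the whole list. Slc22a6, another member, had an unadjusted limma p of 0.0944 in that fit, and the remaining members are not given. Of all 18625 probe sets, 1360 had an unadjusted limma p under 0.05 in the fit of the 8 arrays. The collagen genes Col3a1 and Col1a2 differed by -0.74 (SE 0.38) and -0.59 (SE 0.34), Igfbp2, which binds growth factors, by -0.64, and the matrix gene Ogn by -0.68. The other kept probe set of Col1a2 differed by -0.38, and those of Ogn by -0.71, -0.36 and -0.68. Col3a1 had 8.37, 8.74, 9.14 and 8.52 in linalool rats and 8.88, 9.22, 9.84 and 9.77 in control rats. The summed signal of these markers was 14826 to 18459 in linalool rats and 16645 to 21674 in control rats, and their part in the lower values of Slc13a3, Coch, C3 and Cd74 was not tested. With the BioC split as a block Col3a1 differed by -0.39, Col1a2 by -0.29, Igfbp2 by -0.27 and Ogn by -0.40, and the list median was -0.13, and on the BioC-low arrays -0.35.

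Oligodendrocyte, endothelial and pericyte markers also lay mostly below 0. For oligodendrocytes, which form myelin, 16 of 17 were negative (median -0.20), with Opalin at -0.66 (SE 0.26), Enpp2 at -0.36 (SE 0.10) and Ermn at -0.30 (SE 0.14, or -0.18 without control replicate 2), while Mbp, the myelin basic protein gene, differed by 0.041. Opalin had 9.90, 9.28, 9.41 and 9.80 in linalool rats and 10.01, 10.24, 10.71 and 10.09 in control rats, without overlap. The other kept probe sets of Ermn differed by -0.29 and -0.029. The oligodendrocyte median was -0.12 both with the BioC split as a block and on the BioC-low arrays. All 7 measured precursor markers were negative (median -0.13), Bcas1 at -0.42. For endothelium 13 of 17 were negative (median -0.18). Kdr, the receptor of VEGF, at -0.50 (SE 0.21) and Slco1a4, a transporter of the blood-brain barrier, at -0.26 (SE 0.13) were both without overlap. Lower values without overlap were found in 2.61% of all genes. Pericyte and smooth muscle markers had a median of -0.21, with 7 of 9 negative. It was -0.11 with the BioC split as a block and -0.20 on the BioC-low arrays. Astrocyte markers were negative in 11 of 12 cases at a median of -0.066, and neuron markers in 9 of 15 at -0.024. The summed signal of the astrocyte list was 49137 to 54527 in linalool rats and 54683 to 56048 in control rats, without overlap. For the cortex and hippocampus list the sums were higher without overlap, at 1591 to 1658 in linalool rats and 1389 to 1570 in control rats.

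Tissue that borders the hypothalamus was represented unevenly. The choroid plexus list had 5 measured genes at a median of 0.26, led by the prolactin receptor gene Prlr at 0.59 (SE 0.25), and the median was 0.078 without control replicate 2 and 0.40 without control replicate 3, with summed signals of 1906 to 2112 in linalool rats and 2004 to 2540 in control rats. Ependymal and tanycyte markers, of the cells that line the third ventricle, had a median of 0.12 (-0.010 on the BioC-low arrays), thalamic markers -0.065 and striatal markers -0.023. Of the anterior pituitary list 4 of 12 genes with a probe set passed the filter, and Prl, Gh1 and Pomc were below it. The 4 measured genes ran from -0.88 to 0.68, with 2 positive and 2 negative. Lhb was the 1 member higher without overlap, at 0.49 (SE 0.16), where 2.78% of all genes were. Summed signals of the pituitary list were 3748 to 5693 in linalool rats and 1414 to 7841 in control rats. The blood list had 3 measured genes, with sums of 3038 to 7772 and 3022 to 6031 in the same order.

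**Figure D4:**
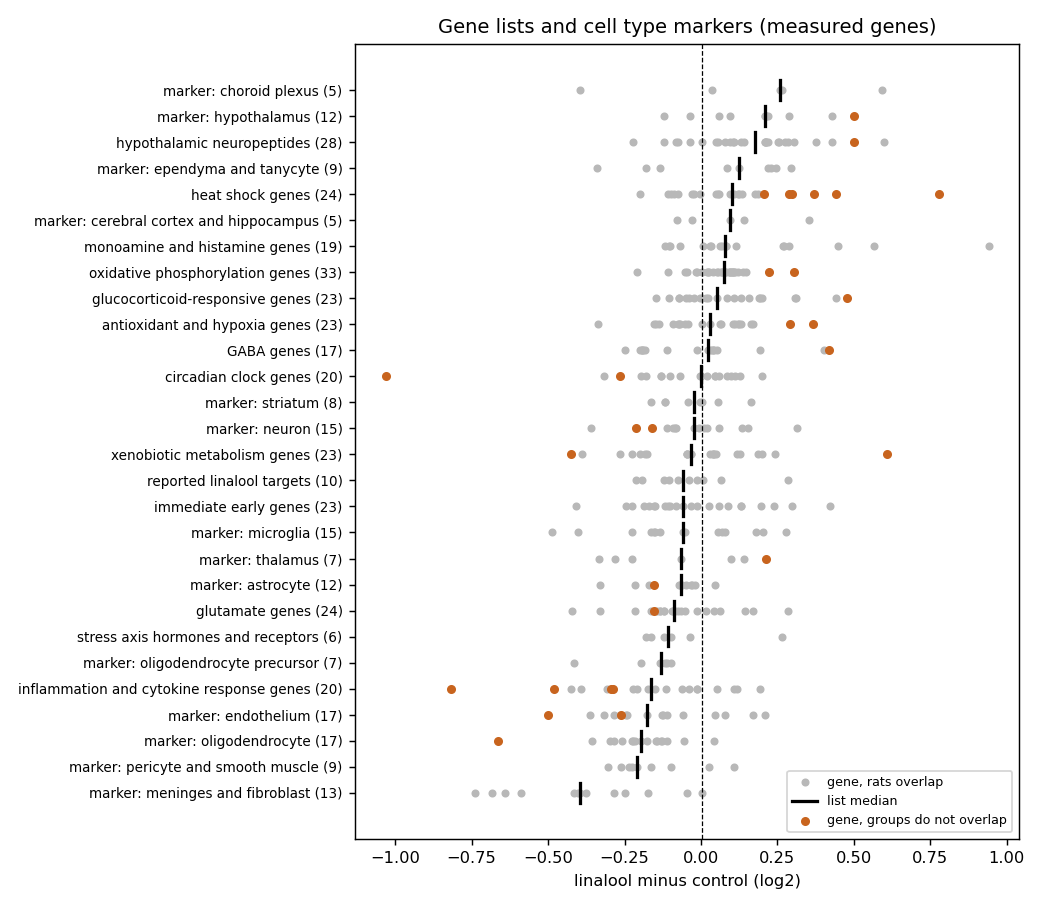
Log2 differences, linalool minus control, of the measured genes in each list with at least 5, ordered by the list median (bars), with the number of genes in brackets; the dashed line is the median of all measured genes. Medians run from -0.40 (meninges and fibroblast markers) to 0.26 (choroid plexus markers), and the genes in colour are those whose groups do not overlap.

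The same odour contrast was measured in restrained rats, stress with linalool minus stress, in 8 arrays that this comparison does not use in its means. In that contrast 121 of 18625 probe sets were called (0.650%). These calls were 0 on the BioC-low arrays, 51 with the BioC split as a block and 32 with the values as deposited. Across probe sets, which are not independent and were normalized together, Pearson's r between the differences of both contrasts was 0.18 and Spearman's rank correlation 0.19. On the 13 BioC-low arrays, which leave out rats 2 and 4 of the linalool group and 1 rat of the restrained linalool group, r was 0.044. Of the 1831 probe sets at an unadjusted p under 0.05, 1217 (66.5%) had the same sign in restrained rats, against 56.8% of all probe sets. Of the 883 without overlap, 604 (68.4%) did. These shares come from all 16 arrays. On the BioC-low arrays the share of the same sign over all probe sets was 51.1%.

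Of the 24 genes with the smallest p, 19 had the same sign in restrained rats, 8 of the 12 higher and 11 of the 12 lower, and 0 were called there. Over all measured genes, 2533 of 5211 higher and 3304 of 5039 lower ones kept their sign, so lower genes did so more often in general. In 6 of the 24 the restrained groups did not overlap either and ran the same way, namely Cd99, Prpf19, Dnlz, Ccnq, Stard5 and Myh9. Over all probe sets 1929 (10.4%) did not overlap in the restrained contrast, in either direction. Cd99 had 8.95, 8.96, 8.97 and 8.96 in stress with linalool rats and 8.83, 8.50, 8.69 and 8.39 in stress rats, a difference of 0.35 (SE 0.11). Stard5 had 6.63, 6.64, 6.50 and 6.64 in stress with linalool rats, against 6.79, 6.93, 7.03 and 6.81 in stress rats (-0.29, SE 0.11). Katnip ran the other way without overlap, with 6.41, 6.39, 6.40 and 6.50 in stress with linalool rats and 6.56, 6.74, 6.61 and 6.72 in stress rats. Its interaction, the difference of both odour differences, was -0.59 (SE 0.099, adjusted p = 0.135 with limma). The interaction was called for 0 of 18625 probe sets (0%). For no named gene, then, did the odour difference itself change past the test between unrestrained and restrained rats.

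Values in restrained rats of the other genes described above spanned a wide range. Hspa1a was higher by 1.30 (SE 0.54) in restrained rats, with 12.83, 12.63, 11.75 and 11.06 in stress with linalool and 11.79, 11.90, 8.59 and 10.79 in stress. Sst differed by 0.24 (SE 0.11), Trh by 0.56 (SE 0.17) and Ppp4c by 0.65 (SE 0.19). The largest lower differences of unrestrained rats were, in restrained rats, -0.18 for Slc13a3, -0.14 for Coch, -0.14 for Npas2 and -0.093 for C3, while Cd74 was at -0.60 (SE 0.32). Th had 9.75, 9.29, 9.65 and 8.72 in stress with linalool and 10.56, 9.82, 10.11 and 10.00 in stress, a difference of -0.77 (SE 0.24) without overlap, and Slc6a3 differed by -1.14 (SE 0.48). Their interactions of -1.34 (SE 0.35) and -2.08 (SE 0.68) had limma adjusted p of 0.392 and 0.494. Gabra2 was the only named gene called in restrained rats, at 0.96 (SE 0.21, adjusted p = 0.0454 with limma, a call that is lost on the BioC-low arrays), against 0.42 in unrestrained rats. List medians in restrained rats were 0.17 for heat shock genes, 0.043 for neuropeptides, 0.024 for inflammation genes and -0.26 for meningeal markers.

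**Figure D5:**
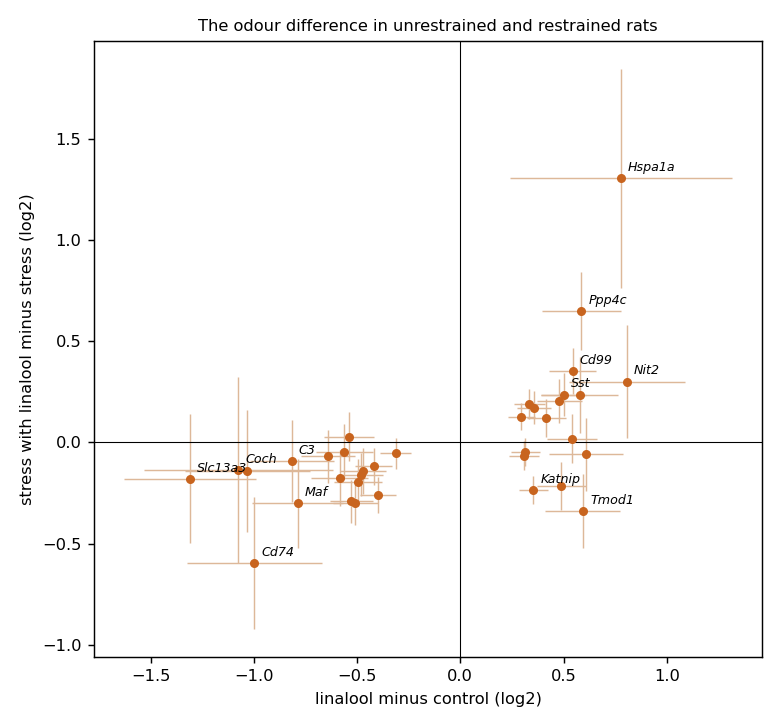
Difference between rats with and without linalool for 36 genes, the 24 of smallest p and the 12 of largest difference, in unrestrained rats (horizontal, linalool minus control) and restrained rats (vertical, stress with linalool minus stress), log2 with limma standard errors. Most points lie in the upper right and lower left, with Hspa1a at 0.78 and 1.30, while Tmod1 (-0.34) and Katnip (-0.23) are among those of opposite sign.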

How the data were processed

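Hypothalamus RNA of 16 rats, 4 per group, was hybridised to 1-colour Affymetrix arrays, 1 per rat. The authors deposited MAS5 signals, which are linear intensity values per probe set, per the submitters' processing notes; the scaling target and software version are not given in the sources used here. From these, log2(signal + 16) was taken after quantile normalization between the 16 arrays, as the deposited arrays differed in level. The 57 control probe sets were left out, as were probe sets whose mean over the 16 arrays lay below the 40th percentile (a signal of 60.5), which kept 18625. Of 31042 probe sets other than controls, 20826 carry 1 gene symbol, 436 several and 9780 none in the platform annotation, and names were checked against a RefSeq gene table. A gene was represented by its kept probe set of highest mean signal, over 10250 genes, and symbols that are only locus numbers were left out.

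A model with 1 mean per group was fitted to all 16 arrays in limma 3.58.1 (R 4.3.3), tested on simulated data first, with Benjamini-Hochberg adjustment over 18625 probe sets and a threshold of 0.05. The rats are separate animals, per the labels' design text, and precision is limited by how many arrays there are. Genes named were the 12 higher and 12 lower of smallest p, the 6 higher and 6 lower of largest difference without overlap, the 2 members of smallest p in each list with at least 5 measured genes, and always Crh, Avp, Oxt, Sst, Fos, Nr4a1, Sgk1, Fkbp5, Per1 and Hspa1a. Other named genes are list members whose groups did not overlap, or were chosen after their values were seen. The comparison, its 14 pathway and 16 marker lists were chosen with earlier results of these data known. Array measures were compared by exact permutation over the 8 arrays. All 16 value columns were mapped to samples, and 0 were left unused.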

Additional observations from a re-analysis of the deposited data

Results flagged for a closer look

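In a group of 4 rats, 1 rat can stand apart from the other 3, measured as its gap to the nearest rat over the range of the group, and set against Dixon's critical value. Of 262 groups examined, 13 had such a rat, and chance gives about 1 in 20. Among linalool rats the ratio was 0.913 for Katnip, 0.860 for Hdhd3 and 0.887 for Tmod1, in each of which rat 4 was low, and 0.867 for Taok3, in which rat 4 was high at 7.41 against 6.66 to 6.76 in the others. It was 0.907 for Tmem198b, with rat 2 low, and 0.831 for B2m, with rat 2 high. Among control rats it was 0.906 for Mx2, in which rat 3 was high, 0.888 for Nrgn, with rat 2 high, and 0.845 for Per1, with rat 2 low. It was 0.830 for Dnlz, with rat 4 high, 0.861 for Dnajb1, with rat 4 low, and 0.873 for Vim, with rat 1 low. The log2 ratio of the 3' to the 5' probe set of GAPDH had 0.909 among control rats, with rat 1 at 0.479 and the others at 0.188 to 0.214.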

How the results depend on the processing

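Under 21 alternatives the 127 named genes gave 0 calls, and 117 kept their sign in every one that measured them, while 13 of 30 list medians did. The count of probe sets called was 0 in all alternatives but 1: with the beta-actin ratio (3' over 5') as covariate it was 1 (Nup58, 0.60, limma adjusted p = 0.00599). The count past 1.5-fold, 129, was 270 with the values as deposited, 242 with a pseudocount of 0, 57 with a pseudocount of 64, 486 without the filter, 64 with a filter at the 60th percentile and 240 on the BioC-low arrays. It ranged from 155 to 218 when 1 linalool or control rat was left out, with 218 without control replicate 1 and 202 without control replicate 4, and probe sets called stayed at 0. The count at an unadjusted p under 0.05, 1831, ranged from 1484 to 2716 without 1 linalool or control rat, with 2716 at control replicate 1. With the values as deposited, 3.1% of those at p under 0.05 and 10.7% of those past 1.5-fold were higher, against 54.2% and 48.1% after quantile normalization, and 38.8% of those past 1.5-fold on the BioC-low arrays. For stress with linalool minus stress, 121 calls became 32 with the values as deposited, 46 without the filter, 51 with the BioC split as a block, 0 on the BioC-low arrays (leaving 3 stress with linalool and 2 linalool rats), 386 with the beta-actin covariate and 484 with array weights, which were added after seeing the data. Without 1 linalool or control rat these calls ranged from 92 to 233, with 233 without control replicate 1, and no restrained rat was left out. For the interaction, 0 calls became 1 with the values as deposited, with a pseudocount of 64, with the 60th percentile filter, with the BioC block and with a trended, robust prior, 14 with the beta-actin covariate, and ranged from 0 to 0 without 1 linalool or control rat. The cause of these shifts was not tested. With the replicate number as a block (replicate block) 0 probe sets were called, 1807 had an unadjusted limma p under 0.05 and 129 passed 1.5-fold. Deviations of same-numbered linalool and control rats correlated at -0.13 to 0.0077. These 4 correlations show no pairing by number, but they are too few to exclude one.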

Other observations

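Of genes outside the lists, Slfn4, a gene induced by interferon in myeloid cells and singled out after its values were seen, had 6.22, 5.87, 5.71 and 5.47 in linalool rats and 6.21, 6.41, 7.24 and 7.62 in control rats, a difference of -1.05 (SE 0.44). Control rats 3 and 4 were high. In restrained rats it differed by 0.13 (SE 0.44).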
